A study of Sus scrofa with 18 samples.

Results

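The cytosolic ribosomal protein genes were taken as the probe sets whose single gene symbol in the platform annotation had the form of an RPL or RPS number, RPLP0 to RPLP2 or RPSA, without the RPS6 kinases. The rule found 64 genes on 96 of the 24123 probe sets in the file, 38 of the large and 26 of the small ribosomal subunit by symbol. Each gene was represented by its brightest probe set. After the dimmest 30% of probe sets were left out, 62 genes remained, 37 of the large and 25 of the small subunit, among 5710 named genes and 16799 probe sets tested. RPL26 and RPS15A had only dim probe sets, with mean log2 signals of 1.40 and 1.03, and were not tested. A RefSeq gene table for the pig holds 84 symbols of this form, so the set is not the whole ribosome; RPS3 and RPL10, for example, had no probe set of their own name. Another 8 probe sets carried such a symbol together with a second gene and were not used. Of the 64 genes, 6 are paralogs or other proteins with a matching symbol (RPL7L1, RPL22L1, RPL26L1, RPL36AL, RPS27L and RPS19BP1).

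The values came from the retinas of 18 male piglets of a cross of Landrace and Large White pigs, taken at postnatal day 38. From an enrolment age of 3 days, 9 piglets were fed milk replacer alone (control) and 9 milk replacer with sialyllactose, a milk sugar in which sialic acid is joined to lactose. Each piglet gave 1 array of total retinal RNA. By its title, the series asks how sialyllactose acts on the developing retina and on vision. The tissue is a mixture of neurons, glia and vessels, in which fewer cells of a type and less RNA per cell cannot be told apart.

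Ribosomal proteins coat and shape the ribosomal RNA of the large subunit, where peptide bonds form, and of the small subunit, where messenger RNA is decoded. Their messenger RNAs are among the most abundant of most cells, and most begin with a pyrimidine tract through which the TOR pathway sets their translation, so that protein supply can change without a change of messenger RNA. In the retina, photoreceptors renew their light-sensing membranes daily, a process that needs steady protein synthesis.

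The arrays were alike, with correlations between 0.981 and 0.992 over the tested probe sets and no identical pair. The brightest tested marker of the rod list, the rod arrestin SAG, had a mean log2 signal of 10.6. That of the cone list was the cone arrestin ARR3 at 9.63, of Müller glia GLUL at 10.5 and of ganglion cells NEFL at 9.76. Other listed markers were dimmer. The mean level of the cone list ran from 4.73 to 5.48 in controls, and SOX9 of Müller glia had a mean of 2.00. No bipolar or lens marker of the lists used here was tested. With 1 array per piglet, the spread within a diet is that between animals together with array error.

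The brightest probe set of most ribosomal protein genes was bright on the array as a whole. Of the 62 tested genes, 53 lay in the top 5% of tested probe sets by mean signal, and 50 had a mean log2 signal of 8 or more. The means ran up to 10.2 for RPS18. RPL30 stood apart at 1.68, at the 5.99th percentile of the tested probe sets, and the 6 paralogs and other symbols lay between 5.11 and 7.06. A probe set's brightness also depends on its probes, so these means give no order of expression between genes.

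None of the 62 ribosomal protein genes passed limma's test between diets at an adjusted p of 0.05, and neither did any of the 16799 probe sets (0%). The lowest adjusted p of a member was 0.773. At an unadjusted p under 0.05, 2 members (RPS15 and RPL7L1) were lower with sialyllactose and 0 were higher, where 6.3% of all tested probe sets met that threshold (3.36% lower and 2.94% higher). In no member did the 9 values of one diet lie clear of the 9 of the other, which held for 0% of all probe sets. The 95% intervals of all 62 differences lay within 1.2-fold in either direction, and 60 of them included 0. The bound farthest from 0 was 1.17-fold, for RPL15.

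The means nevertheless lay mostly on one side. With sialyllactose, 58 of the 62 genes had a lower mean log2 signal, against 53.4% of all tested probe sets and 56.7% of named genes. Their median difference was -0.042 (sialyllactose minus control, log2), beside -0.0065 over all tested probe sets and -0.011 over named genes. Among the 330 other probe sets with a mean of 8 or more, 58.2% were lower, with a median of -0.0073. The genes share arrays and move together, so 58 genes are far from 58 independent readings. The count was 49 (median -0.024) after each array was centred on its median, where 44.2% of all tested probe sets were lower. It was 47 (median -0.025) after a second quantile normalization and 47 (median -0.032) with the RNA quality measure as a covariate. The share of all tested probe sets that were lower under these last settings is not given here. Those counts, and the quantile counts by subunit below, therefore have no share to stand beside.

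**Figure D1:**
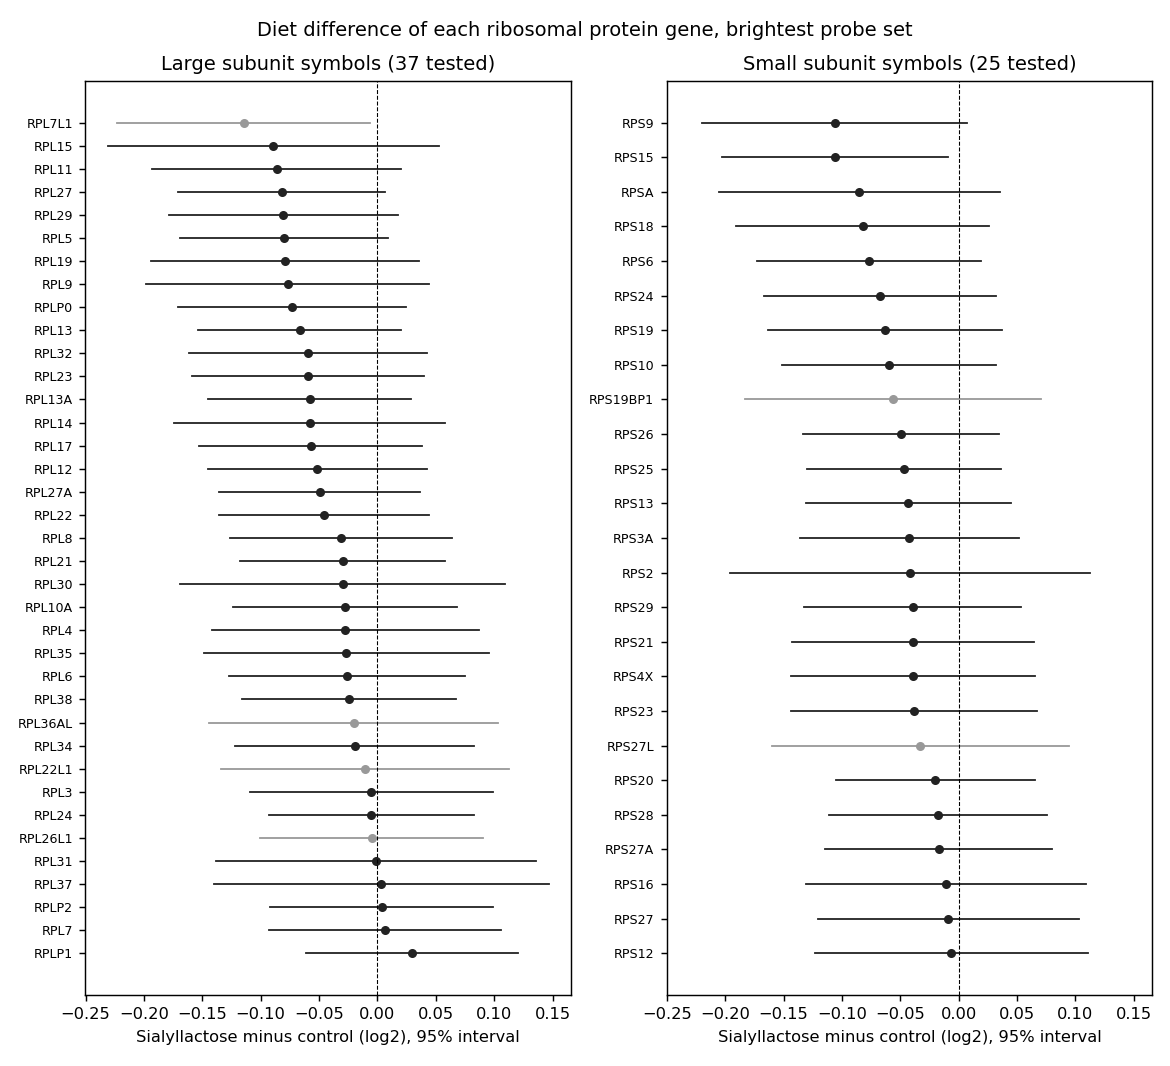
Difference between diets for each tested ribosomal protein gene (x axis, sialyllactose minus control, log2; points, with 95% limma intervals as lines), large subunit symbols on the left and small subunit symbols on the right. Grey marks the 6 paralogs and other symbols; 58 of 62 points lie left of 0 and 60 of 62 intervals include 0.

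By subunit, 33 of 37 large subunit genes were lower with sialyllactose, with a median difference of -0.032, and 25 of 25 small subunit genes, with a median of -0.042. Without paralogs and RPS19BP1 the counts were 29 of 33 (median -0.046) and 23 of 23 (median -0.042). With arrays centred, 28 of 37 large and 21 of 25 small subunit genes were lower (medians -0.014 and -0.025), and after quantile normalization 27 and 20 (medians -0.020 and -0.026). The large subunit median was -0.055 without the 2 arrays with the largest 3′ minus 5′ signal difference of control transcripts. Leaving out single arrays moved it from -0.054, without control retina 9, to -0.031, without sialyllactose retina 8. The small subunit median moved likewise, from -0.058 without control retina 9 to -0.036 without sialyllactose retina 7.

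In the large subunit, RPL5 and RPL11 carry the smallest ribosomal RNA into the ribosome and, when free, bind the p53 regulator MDM2. RPL5 ranged from 8.82 to 8.98 in control retinas (median 8.94) and from 8.66 to 8.92 with sialyllactose (median 8.87). All 9 sialyllactose values lay below the control median, though the ranges overlapped. The difference was -0.080 (limma adjusted p = 0.789), and -0.056 without sialyllactose retina 7, the lowest of that diet. RPL11 ranged from 8.74 to 9.07 (median 8.85) and from 8.62 to 8.90 (median 8.76), with 8 of 9 sialyllactose values below the control median. Its difference was -0.086 (limma adjusted p = 0.816), and -0.058 without control retina 2, the highest.

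RPL27 had the smallest p among the large subunit's core proteins. It ranged from 8.39 to 8.60 in controls (median 8.43) and from 8.26 to 8.44 with sialyllactose (median 8.40). Here the medians nearly met, while the highest values came from controls and the lowest from sialyllactose retinas. The difference was -0.082 (limma adjusted p = 0.783). A second probe set of RPL27 was nearly as bright, at a mean of 8.40 against 8.42. It differed by -0.047, with an unadjusted limma p of 0.332 against 0.0672, and correlated with the first at 0.264. RPL29, another large subunit protein, measured 8.18 ± 0.09 against 8.10 ± 0.07 (mean ± SD, n = 9 each), with a limma adjusted p of 0.811. RPL22, which has the paralog RPL22L1, measured 9.17 ± 0.07 against 9.12 ± 0.07, with 5 of 9 sialyllactose values below the control median and an interval from -0.14 to 0.044. Its difference of -0.046 was -0.012 after quantile normalization.

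The stalk proteins did not share one side. RPLP0 anchors pairs of RPLP1 and RPLP2 on the large subunit, where they recruit elongation factors. RPLP0 ranged from 9.12 to 9.34 in controls (median 9.24) and from 9.05 to 9.29 with sialyllactose (median 9.20), a difference of -0.073 (95% interval -0.17 to 0.024), which was -0.056 with arrays centred and -0.035 after quantile normalization. RPLP1 ranged from 8.80 to 9.04 (median 8.93) and from 8.87 to 9.05 (median 8.92), a difference of 0.030 (-0.061 to 0.12). RPLP2 ranged from 6.43 to 6.75 (median 6.58) and from 6.53 to 6.70 (median 6.62), a difference of 0.0037 (-0.092 to 0.099). The intervals of the 3 stalk genes overlapped, and none passed limma's test (adjusted p of 0.835, 0.941 and 0.996). RPLP1 was higher under the centred and quantile scalings too, at 0.047 and 0.050, and without each array in turn, from 0.015 to 0.045. The sign of RPLP2 turned in 7 of the 18 fits that left out an array.

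RPL7 and RPL37 were the remaining genes without a lower mean. RPL7 measured 9.16 ± 0.07 in controls and 9.16 ± 0.09 with sialyllactose, and RPL37 7.18 ± 0.19 against 7.18 ± 0.08. Leaving out single arrays turned their sign in 4 and 6 of 18 fits. For these genes, the data set an interval and no side: -0.093 to 0.11 for RPL7 and -0.14 to 0.15 for RPL37.

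In the small subunit, RPS15 had the smallest p of all members. RPS15 is needed for the export of new small subunits from the nucleus. Its values ran from 8.18 to 8.49 in controls (median 8.33) and from 8.11 to 8.30 with sialyllactose (median 8.24). Every sialyllactose retina lay below the control median, and 3 control retinas lay within the sialyllactose range. The difference was -0.11 (95% interval -0.20 to -0.0091, limma adjusted p = 0.773), and from -0.12 to -0.085 with single arrays left out.

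RPS9, a protein that binds ribosomal RNA early in assembly, ran from 7.43 to 7.90 in controls (median 7.70) and from 7.49 to 7.68 with sialyllactose (median 7.62). The sialyllactose values again all lay below the control median, yet the lowest value of the 18 was control retina 9. The difference was -0.11 (limma adjusted p = 0.783), and -0.14 without that retina. RPS6, the target of the S6 kinases downstream of TOR, ran from 8.16 to 8.46 (median 8.27) and from 8.12 to 8.27 (median 8.22). All 9 sialyllactose values were below the control median, in a narrower range than the controls. Its difference was -0.077 (limma adjusted p = 0.821).

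RPS18 measured 10.3 ± 0.12 against 10.2 ± 0.06, a difference of -0.082, which was -0.054 without control retina 2 and -0.042 after quantile normalization. RPSA, which is also known as a laminin receptor, measured 8.12 ± 0.13 against 8.04 ± 0.10, a difference of -0.085, and -0.055 without the same retina. These 2 genes passed no threshold (limma adjusted p of 0.834 and 0.852). RPS27A, made as a fusion with ubiquitin, measured 9.68 ± 0.08 against 9.66 ± 0.08, a difference of -0.017. That difference was 0.00054 with arrays centred and -0.020 after quantile normalization, and ran from -0.037 without control retina 9 to -0.0060 without control retina 6.

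**Figure D2:**
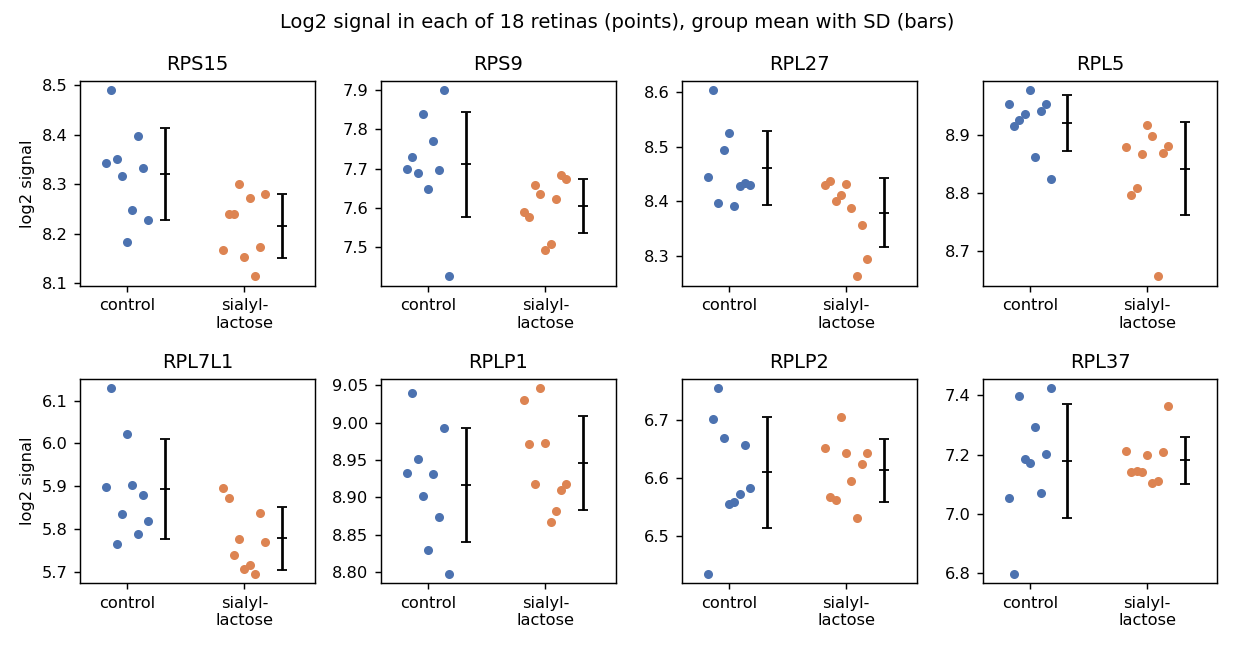
Log2 signal (y axis) of 8 ribosomal protein genes in each of the 18 retinas, by diet; bars give the mean and SD of 9 retinas. The diets overlap in every gene, and RPS15 runs from 8.18 to 8.49 in controls and from 8.11 to 8.30 with sialyllactose.

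Of the paralogs and other symbols, RPL7L1 had the lowest p. It is a nucleolar protein of ribosome assembly and is related to RPL7. It ranged from 5.77 to 6.13 in controls (median 5.88) and from 5.69 to 5.90 with sialyllactose (median 5.77), with 8 of 9 sialyllactose values below the control median. The difference was -0.11 (limma adjusted p = 0.773), against 0.0064 for RPL7 itself. RPS19BP1, which binds RPS19 and is not a ribosomal protein, differed by -0.057, and by -0.019 without control retina 2. RPS27L, a p53 target, differed by -0.033, and by -0.0038 without sialyllactose retina 8. RPL36AL differed by -0.020, with the other sign without sialyllactose retina 7, and RPL22L1 and RPL26L1 differed by -0.011 and -0.0051, with the other sign under both centring and quantile scaling.

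Spread between retinas was small. The SD within diets had a median of 0.084 over the 62 genes, beside 0.16 over all tested probe sets and 0.094 over the 330 other bright ones. The steadiest were RPS25 (0.055), RPS26 (0.057) and RPS20 (0.060). RPS25 is known for its part in translation started inside some viral messenger RNAs. RPS26 touches the messenger RNA ahead of the start codon. The widest were RPS2 (0.16), RPL37 (0.15) and RPL15 (0.15). RPL15 ran from 7.69 to 8.25 in controls and from 7.83 to 8.18 with sialyllactose. Its lowest value came from control retina 9, and its difference of -0.089 was -0.14 without that retina. RPS2 ran from 8.77 to 9.34 and from 8.74 to 9.23. Its difference of -0.041 was -0.0033 without sialyllactose retina 6, -0.082 without control retina 9 and -0.017 after quantile normalization.

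To describe the ribosomal proteins as a whole in each retina, every gene's deviation from its mean over 18 retinas was averaged. This mean deviation ran from -0.097 to 0.093 in control retinas (median 0.028) and from -0.12 to 0.061 with sialyllactose (median -0.030). Retina 9 was the lowest control and retina 7 the lowest with sialyllactose, while control retina 2 was the highest of all. In sialyllactose retina 7, 60 of 62 genes lay below their own mean, and 29 had their lowest value of the 18 there. In control retina 9 the counts were 53 and 15, and 26 genes had their highest value in control retina 2. The diet means were 0.022 ± 0.052 and -0.022 ± 0.051 (SD, n = 9 each), a difference of -0.044 that was smaller than 1 SD between retinas of a diet.

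The subunits varied together across retinas. The mean deviation of large subunit genes correlated with that of small subunit genes at Pearson's r = 0.893 and Spearman's rho = 0.748 over 18 retinas, diet means removed. Without the 2 retinas farthest from the median, control 9 and sialyllactose 7, r was 0.762. Both means come from the same arrays and the same normalization. After quantile normalization over the tested probe sets r was 0.799. The diet difference of the small subunit mean was -0.048 and that of the large -0.041, against SDs within diets of 0.055 and 0.052.

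**Figure D3:**
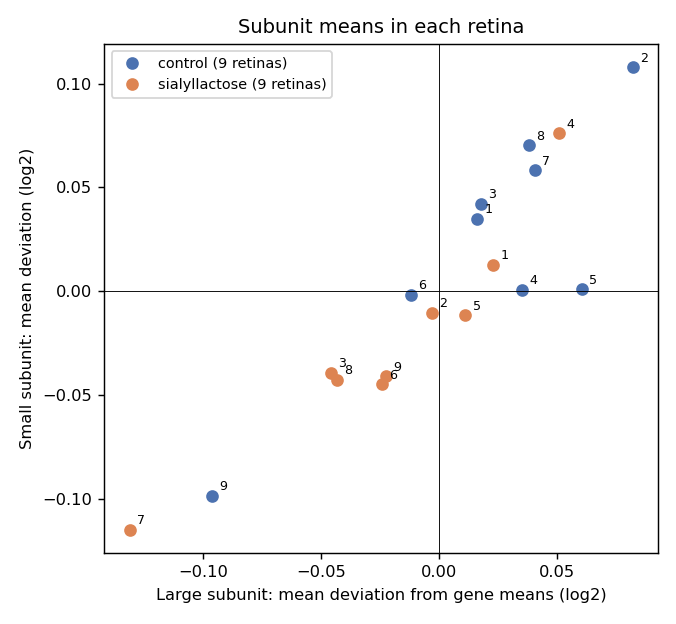
Mean deviation of large subunit genes (x axis, log2) against that of small subunit genes (y axis, log2) in each retina, diet means kept, numbered by replicate. Control 9 and sialyllactose 7 lie at the lower left and control 2 at the upper right, at 0.082 and 0.11.

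Single genes followed the same pattern. Over the 1891 pairs of members, the median correlation across retinas was 0.382, beside 0.0077 over all pairs of named genes, 0.074 over 198 other bright named genes and 0.094 over 58 mitochondrial ribosomal proteins. It was 0.416 within the large subunit, 0.365 within the small and 0.368 between them. Correlations were above 0 in 86.9% of member pairs and above 0.5 in 33.1%, where all named pairs gave 51.1% and 3.5%. The first principal component of the members held 41.9% of their variance and the second 12.4%. The median depended on processing: it was 0.228 after quantile normalization, 0.202 with gene means over all tested probe sets, and 0.310 without control retina 9.

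Against the mean of the other members, 43 of 62 genes correlated above 0.5, with a median of 0.612. RPL14 (0.892), RPS24 (0.876) and RPL4 (0.834) followed it most closely. RPS24 is one of the genes mutated in Diamond-Blackfan anaemia, a disease of ribosome supply in red blood cell precursors. The closest pairs were RPL7 with RPL31 (0.883), RPL6 with RPL38 (0.876) and RPL35 with RPS21 (0.859), the last across subunits.

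At the other end, RPL30 (-0.501) and RPL37 (-0.499) were the only genes below 0, and RPL26L1 lay at 0.051. RPL30 was the dim probe set named above; it measured 1.69 ± 0.13 in controls and 1.66 ± 0.15 with sialyllactose, and its difference of -0.030 was -0.0079 without control retina 4 and -0.068 without sialyllactose retina 7. RPL37 was not dim, at a mean of 7.18, and correlated with RPSA at -0.738. It was lowest of the 18 in control retina 2, at 6.80, and highest in control retina 9, at 7.42, the retinas in which the mean of all members was highest and lowest among controls. Across the 62 genes, mean signal and correlation with the other members were related at r = 0.605; genes are not independent replicates.

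**Figure D4:**
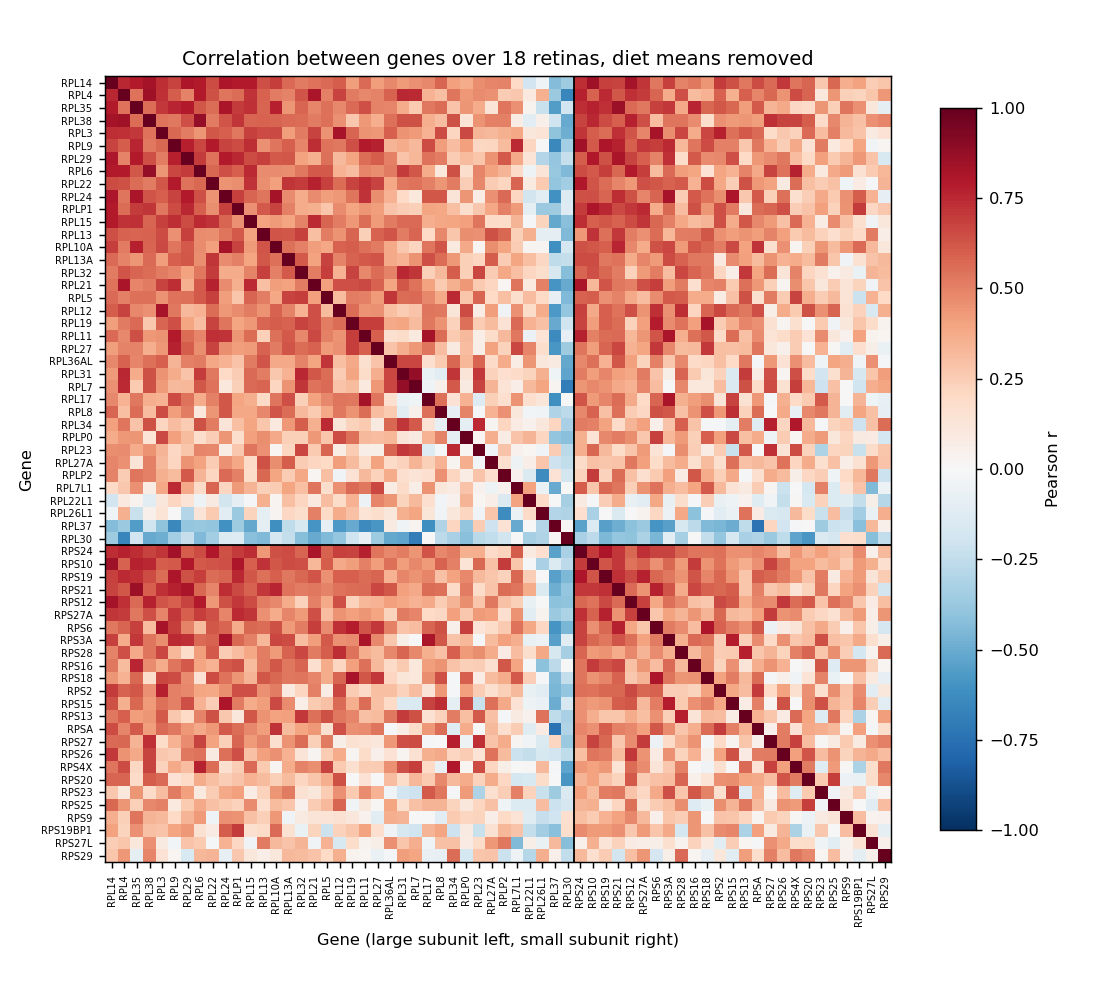
Pearson correlation over 18 retinas, diet means removed, between each pair of the 62 genes; black lines part the large from the small subunit, and genes are ordered within each by correlation with the other members. RPL37 and RPL30 form the blue band at the end of the large subunit block, at -0.499 and -0.501 with the mean of the others.

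Where a gene had several probe sets, they often disagreed. Of the 20 genes with 2 or more tested probe sets, 7 had a diet difference of one sign in all of them. Over their 30 pairs of probe sets the median correlation across retinas was -0.029, and 13 pairs shared a sign, beside 0.151 and 57.1% over 2823 such pairs of all named genes. Agreement went with brightness. In the 6 pairs with both means at 6 or more, which came from 4 genes and included 3 pairs of RPS18, the median was 0.285 and 6 of 6 shared a sign. The 159 such pairs of all named genes had a median of 0.402, and 63.5% shared a sign. In the 24 member pairs with a dimmer partner the median was -0.049, and 7 of 24 shared a sign. The 25 tested probe sets that were not the brightest of their gene were lower with sialyllactose in 9 cases and higher in 16, with a median difference of 0.015. The higher ones all had means under 6. Those with means of 6 or more were all lower: RPL27 (-0.047), RPL31 (-0.032), RPS18 (-0.028 and -0.014) and RPS27A (-0.0069). Among these second probe sets, the lower side was thus that of the bright ones and was not shared by most dim ones. The brightest probe sets of the genes did not part in this way. RPL30, RPS19BP1, RPS27L, RPL22L1 and RPL7L1, with means from 1.68 to 5.84, were all lower. RPLP2, RPL37, RPLP1 and RPL7, with means from 6.61 to 9.16, were higher.

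The widest gap belonged to RPL38. Its brightest probe set, at a mean of 8.55, differed by -0.024, and the other, at 4.47 with an SD within diets of 0.67, differed by 0.29. The brighter one had the other sign, at 0.0023, after quantile normalization. The next were RPL13A (-0.058 and 0.18), RPLP0 (-0.073 and 0.097) and RPL32 (-0.059 and 0.093), in which the dim partners had means of 2.11, 4.75 and 3.25. None of these dim probe sets passed limma's test. Both probe sets of RPL31 were bright, at 8.12 and 8.32, and correlated at 0.963. The 3 of RPS18, at 10.2, 8.18 and 6.97, differed by -0.082, -0.028 and -0.014, with correlations from 0.151 to 0.580.

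In 8 genes (RPL6, RPL12, RPL13A, RPL17, RPL23, RPL24, RPL32 and RPS6) a pair of probe sets shared the whole cluster name but for the letter A or S. In each, one was bright and the other dim, by 4.67 to 6.74 on the log2 scale. Their correlations had a median of -0.087, and 0 of 8 pairs shared the sign of the diet difference. The sources used here do not say what the letters stand for, and the strand each probe set reads was not tested.

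**Figure D5:**
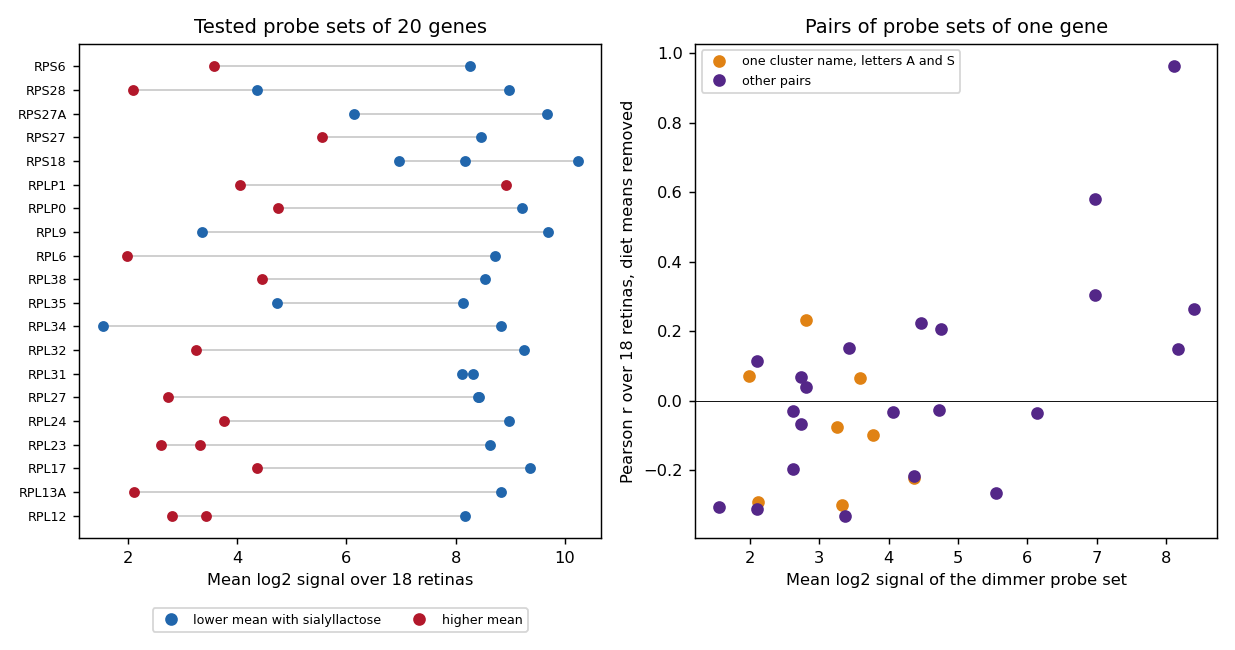
Left, mean log2 signal over 18 retinas of each tested probe set of the 20 genes with several, coloured by the side of the diet difference; right, correlation between probe sets of one gene (y axis, Pearson r over 18 retinas) against the mean signal of the dimmer one (x axis, log2). Of the 25 probe sets that are not the brightest of their gene, 16 are on the higher side, all with means under 6. The RPL31 pair stands at 0.963.

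Other genes of translation gave no calls. Their counts on the deposited values stand beside 53.4% of all tested probe sets and 56.7% of named genes with a lower mean. Of 58 mitochondrial ribosomal proteins, 42 were lower with sialyllactose (median -0.043), as were 25 of 36 initiation list genes (median -0.024). So were 5 of 7 elongation list genes (median -0.025) and 23 of 35 ribosome assembly genes (median -0.031). The initiation list was taken by symbol and also holds EIF2AK2, an interferon response gene, and EIF4EBP2, which is in the TOR list too. The elongation list also holds TPT1 and EEF1E1, which are not elongation factors themselves. Of 18 other messenger RNAs known to begin with the pyrimidine tract, 13 were lower (median -0.025). With arrays centred the counts were 36, 20, 5, 20 and 11, with medians from -0.025 to -0.0066. Centred counts stand beside the smaller share of lower probe sets given above for centred arrays. None of these genes passed limma's adjusted threshold, and 5, 3, 0, 0 and 2 had an unadjusted p under 0.05, all on the lower side, where 3.36% of all tested probe sets met that threshold on the lower side and 2.94% on the higher. Of 11 RNA polymerase I genes 5 were lower (median 0.018), and of 11 genes of TOR signalling 7 were lower (median -0.022), or 4 and 6 with arrays centred. The list of pyrimidine tract genes shares members with the initiation, elongation and assembly lists, and its 2 genes with an unadjusted p under 0.05, EIF4B and EIF3A, are also 2 of the 3 initiation factors counted. FAU, whose product includes a small subunit protein outside the symbol rule, measured 9.21 ± 0.10 against 9.12 ± 0.08, and RACK1, which sits on the small subunit, 8.52 ± 0.08 against 8.45 ± 0.07.

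The smallest p of these lists belonged to EIF4A1, the helicase that unwinds messenger RNA at initiation, at 6.19 ± 0.06 against 6.06 ± 0.08 (limma adjusted p = 0.753). MRPL13, of the mitochondrial large subunit, followed at 4.87 ± 0.08 against 4.74 ± 0.08 (limma adjusted p = 0.753). On the higher side the smallest belonged to POLR1B, a core subunit of RNA polymerase I, at 3.31 ± 0.15 against 3.43 ± 0.14 (limma adjusted p = 0.794), and EIF2B3, of the exchange factor of initiation, at 4.63 ± 0.17 against 4.75 ± 0.17 (limma adjusted p = 0.83).

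Of 5648 other named genes, those most like the mean of the ribosomal proteins across retinas were MRPL14 (r = 0.869), KLC1 (0.852), FAU (0.841), SF3B5 (0.826) and EIF3H (0.826), where the median gene stood at 0.055. MRPL14 belongs to the mitochondrial ribosome, KLC1 is a kinesin light chain, SF3B5 is part of the splicing machinery and EIF3H of an initiation factor. The highest of 5648 values is large by selection, and all share the same 18 arrays.

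Several measures moved with the mean of the ribosomal proteins across retinas. The 3′ minus 5′ signal of control transcripts, which grows as RNA breaks down or labelling stops early, was related to it at r = -0.438 (rho = -0.191) over 18 retinas, at -0.767 in controls and -0.079 with sialyllactose, and at 0.023 without the 2 farthest retinas. It averaged 1.09 ± 0.12 in controls and 1.17 ± 0.11 with sialyllactose, and was highest in control 9 (1.37) and sialyllactose 3 (1.38). Without those 2 retinas, 59 of 62 genes were lower with sialyllactose, with a median of -0.056. The share of all tested probe sets that were lower in that fit is not given here. The mean signal of added control RNAs (spike-ins) was 7.88 ± 0.17 in controls and 8.03 ± 0.11 with sialyllactose. It was related to the ribosomal protein mean at r = 0.220 (rho = 0.445) over 18 retinas, and its part was not tested. Other bright probe sets were related to the ribosomal protein mean at r = 0.514, mitochondrial ribosomal proteins at 0.656 and interferon response genes at -0.0016. Without the 2 farthest retinas these values were 0.685, 0.450 and 0.082. The means of the other pyrimidine tract messenger RNAs and of ribosome assembly genes were related to it at 0.899 and 0.880. These 2 values lay near the r of 0.893 between the subunit means. The initiation list stood at 0.652, elongation at 0.584, TOR signalling at 0.424 and RNA polymerase I at -0.063.

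Cell type markers were read in the same way. The mean level of the amacrine markers, 4 tested of 5 listed, was related to the ribosomal protein mean at r = 0.578 (rho = 0.511), that of 3 of 6 microglial markers at 0.312, and that of 6 of 8 Müller glia markers at -0.360. The amacrine list ran from 5.68 to 5.96 in controls and from 5.68 to 5.98 with sialyllactose, and the microglial list was dim, its brightest gene LAPTM5 at a mean of 2.62. Between diets, all 6 endothelial markers (median -0.19) and all 6 Müller glia markers (median -0.10) had lower means with sialyllactose, and all 4 cone markers of 8 listed higher ones (median 0.092). With arrays centred or quantile normalized these counts were 6, 5 and 4. Of 5 tested pigment epithelium markers, 4 were lower (median -0.099). The endothelial list was related to the ribosomal protein mean at r = -0.318, and at 0.112 without the 2 farthest retinas. The relation was 0.289 for the cone list, -0.044 for ganglion cells and -0.0087 for pigment epithelium. The mean level of the endothelial list ran from 2.72 to 3.14 in controls and from 2.55 to 2.93 with sialyllactose, and that of the Müller glia list from 6.64 to 6.93 and from 6.51 to 6.89. The part of cell make-up and RNA quality in the ribosomal protein means was not tested beyond these values.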

How the data were processed

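Total RNA from the retinas of 18 piglets was hybridised to Affymetrix pig arrays, 1 array per piglet and 9 per diet. The authors deposited log2 values, which the submitters' processing notes tie to RMA in Affymetrix Expression Console, with settings not given in the sources used here. RMA in general places all arrays on 1 distribution, so a shift shared by most genes cannot be seen, and it gives no detection call. RMA also compresses the differences of dim probe sets.

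From the deposited log2 values, 124 control probe sets and the dimmest 30% of the others by mean over all arrays (7200) were left out, which left 16799. Diets were compared on these with limma 3.58.1 in R 4.3.3 (lmFit and eBayes, no covariate), with Benjamini-Hochberg adjustment over all of them and a threshold of 0.05. Intervals are 95% intervals of single probe sets. The fit was first tested on simulated data. Symbols were read from the platform annotation, in which 10099 probe sets had 1 symbol, 198 several and 13826 none; all 96 ribosomal protein probe sets had a gene identifier found in a RefSeq table, and 0 symbols changed. Correlations were taken over 18 arrays after each diet's mean was subtracted.

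Genes were named by a rule: the smallest p in each direction and subunit, the largest and smallest spread, the best and least correlated, the widest gap between probe sets, landmark genes and paralogs, 5 outside genes most like the members, and 2 genes per direction of the translation lists. The members, the gene lists and the rule were chosen with earlier results of these data known. Titles of the 2 diets share replicate numbers 1 to 9; same-numbered retinas had correlations of their deviations from -0.11 to 0.16, with 3 of 9 over 0.1, so the numbers were not used as pairs. No litter, batch or scan date is given in the labels, so a link between same-numbered retinas could not be checked further. Alternatives covered the filter, scaling, replicate block, array weights, probe set choice, the kind of correlation, covariates for RNA quality and interferon genes, and leaving out each array. Removing paralogs, scaling to bright probe sets and leaving out the 2 arrays with the largest 3′ minus 5′ difference were added after seeing the data.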

Additional observations from a re-analysis of the deposited data

Results flagged for a closer look

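In 74 groups of 9 values, those of the named ribosomal protein genes and of the mean deviations, 5 held a value far from the other 8 by Dixon's criterion. That criterion marks about 1 in 20 groups by chance when groups are independent and unselected. These genes share arrays and were named partly for a wide spread or small p in the same data. The count therefore cannot be judged against that rate. With sialyllactose, retina 7 was lowest in RPL5, at 8.66 with the next at 8.80, and in RPL29, at 7.94 with the next at 8.08. The same diet's retina 9 was highest in RPL37, at 7.36 with the next at 7.21. Among controls, retina 9 was lowest in RPL15, at 7.69 with the next at 8.07, and retina 2 was highest in RPL11, at 9.07 with the next at 8.89. Of these 5 values, 4 came from the retinas with the lowest or highest mean over all ribosomal proteins.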

How the results depend on the processing

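The count of 0 ribosomal protein genes passing limma's test held under every alternative run. The lowest adjusted p of a member lay between 0.702 and 0.835 over the alternatives that kept all arrays, between 0.556 and 0.883 with single arrays left out, and was 0.620 without the 2 arrays with the largest 3′ minus 5′ difference. With the replicate number as a block the count stayed at 0, with 58 genes lower, a median difference of -0.042 and a lowest limma adjusted p of 0.725. The numbers share no animal, and the labels do not say that they pair retinas. The median pairwise correlation was 0.228 after quantile normalization and 0.202 with gene means over probe sets. The correlation of subunit means was 0.799, 0.808 and, by Spearman, 0.748 under those settings and rank correlation. Leaving out single arrays gave a count of lower genes of 49 to 60, median differences of -0.056 to -0.036, a pairwise correlation of 0.310 to 0.428, a subunit correlation of 0.835 to 0.942, a probe set correlation of -0.040 to 0.057, and 5 to 9 genes of one sign. For these fits too, the share of all tested probe sets that were lower is not given here. The cause of the shifts was not tested. With 9 arrays per diet, all 62 intervals reached no farther than 1.17-fold, and differences smaller than an interval's own bounds could not be told from 0 in the 60 genes whose interval included 0.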
